A study of Mus musculus with 6 samples.

Results

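The genes of MHC class I antigen presentation were examined in whole brain 48 hours after a systemic injection of lipopolysaccharide (LPS). The set comprised 10 genes, namely the heavy chains H2-K1, H2-D1, H2-Q4, H2-T23 and H2-M3, the light chain B2m, the peptide transporter genes Tap1 and Tap2, the loading chaperone Tapbp and the transactivator Nlrc5. Every transcript cluster whose platform annotation names 1 of these genes, alone or beside others, was taken. Such a cluster is a set of probes summarized to 1 value per array. A gene can be split over several clusters, and a cluster can name several genes. All 10 genes were found, in 30 of the 35556 clusters of the array. Of these 30 clusters, 25 name a member alone and 5 are shared with other genes. Nlrc5 accounts for 19 clusters and the other 9 genes for 11. H2-K1, H2-D1 and H2-T23 are represented by shared clusters alone.

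The mice were male C57BL6 animals, bought at 7 to 8 weeks of age, which received a single i.p. dose of 4 mg/kg LPS from Escherichia coli serotype 055:B5 or the same volume of PBS as vehicle. Each group held 3 mice, and brains were taken at 48 hours, after perfusion with PBS. RNA of 1 whole brain was hybridized to 1 GeneChip Mouse Gene 1.0 ST array. Expression is given as log2 values after robust multichip average (RMA) normalization, as deposited, so that a difference of 1 is a doubling.

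MHC class I molecules sit on almost all nucleated cells and show peptides cut from the cell's own proteins to CD8+ T cells, while some of the less variable heavy chains are read by natural killer cells. The heavy chain folds with the light chain in the endoplasmic reticulum, where the transporter delivers peptides and tapasin, the product of Tapbp, holds the empty molecule next to it until a peptide fits. Transcription of these genes is driven by NLRC5 at a conserved promoter module, and it is raised by interferons and by NF-κB in many tissues. Neurons of the healthy brain are known for low surface class I, and endothelial cells and microglia are its better known carriers there.

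The stretches upstream of the heavy chain and light chain genes are shown so that they can be read beside the expression values. RefSeq windows of build GRCm38.p6 were matched by symbol for 8 of the 10 members, and those of Tap2 and Nlrc5 were not used here. Each stretch holds the 180 bases before the annotated start, written 5′ to 3′ on the gene's own strand, at chr17:34000348-34000527 (minus strand) for H2-K1, chr17:35262914-35263093 (plus strand) for H2-D1, chr17:35379437-35379616 (plus strand) for H2-Q4, chr17:37270054-37270233 (plus strand) for H2-M3, chr17:36032702-36032881 (minus strand) for H2-T23 and chr2:122147507-122147686 (plus strand) for B2m. The RefSeq windows give H2-K1 2 starts, 14 bases apart, of which the upstream one was used, and both lie inside the gene's annotated extent, whose outer end is farther upstream than the H2-K1 stretch. Capitals mark matches on either strand to an interferon response element (GAAANNGAA), a variant of it with closer spacing (GAANNGAAA), a kappa-B element (GGGANNNCC), the core of the CRE-like X2 box (TGACGC) and the Y box (CCAAT). The capitals at the left end of H2-D1 belong to a match that begins before the stretch.
H2-K1: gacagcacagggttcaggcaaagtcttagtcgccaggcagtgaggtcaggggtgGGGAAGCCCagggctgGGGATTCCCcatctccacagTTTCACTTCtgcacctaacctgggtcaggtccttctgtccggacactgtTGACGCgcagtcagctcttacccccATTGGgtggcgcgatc
H2-D1: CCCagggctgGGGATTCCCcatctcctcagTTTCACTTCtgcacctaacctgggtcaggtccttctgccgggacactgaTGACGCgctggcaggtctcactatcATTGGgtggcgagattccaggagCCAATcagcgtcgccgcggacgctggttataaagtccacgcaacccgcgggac
H2-Q4: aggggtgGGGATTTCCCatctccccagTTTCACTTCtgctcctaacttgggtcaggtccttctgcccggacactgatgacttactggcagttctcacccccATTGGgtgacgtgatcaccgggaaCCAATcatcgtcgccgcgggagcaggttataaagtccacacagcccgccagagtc
H2-M3: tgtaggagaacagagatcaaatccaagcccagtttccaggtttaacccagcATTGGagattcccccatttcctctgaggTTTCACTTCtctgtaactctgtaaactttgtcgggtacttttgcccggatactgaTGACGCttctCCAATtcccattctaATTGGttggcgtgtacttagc
H2-T23: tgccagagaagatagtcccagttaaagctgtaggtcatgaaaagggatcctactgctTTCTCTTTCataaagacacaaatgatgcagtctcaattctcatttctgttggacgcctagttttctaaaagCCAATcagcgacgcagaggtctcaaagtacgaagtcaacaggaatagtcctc
B2m: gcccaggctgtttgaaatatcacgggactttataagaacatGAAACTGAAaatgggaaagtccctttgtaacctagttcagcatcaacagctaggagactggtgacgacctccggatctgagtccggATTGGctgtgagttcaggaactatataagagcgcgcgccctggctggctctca

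The motifs were chosen after these sequences had been seen, and a match is a description of letters and not of a bound site. Matches were counted in the 250 bases upstream of the start, on both strands. No match to 1 motif overlapped a match to another, but at the kappa-B match next to the interferon element both strands match, at the same or at neighbouring positions. The kappa-B letters occurred upstream of H2-K1, H2-D1 and H2-Q4, against 15.8% of all 32851 windows. With a further C at its end the kappa-B motif matched upstream of the same 3 genes and in 4.77% of all windows, so that its background share depends on the form searched. The closer spaced interferon element occurred upstream of the same genes and of H2-M3, against 6.31% of all windows. B2m and H2-T23 carried the wider spaced element, found in 7.13% of all windows, or in 2.98% with a further A at its end, which both genes also carry. TGACGC was present in H2-K1, H2-D1 and H2-M3, and in 6.12% of all windows. In each of these 3 genes a Y box match began 25 bases after the first base of TGACGC. Upstream of Tap1 and Tapbp only CCAAT was matched, which is present in 33.8% of all windows. The longest identical run between the printed H2-K1 and H2-D1 stretches was 40 bases. The map of motif positions shows the order of these elements.

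**Figure D1:**
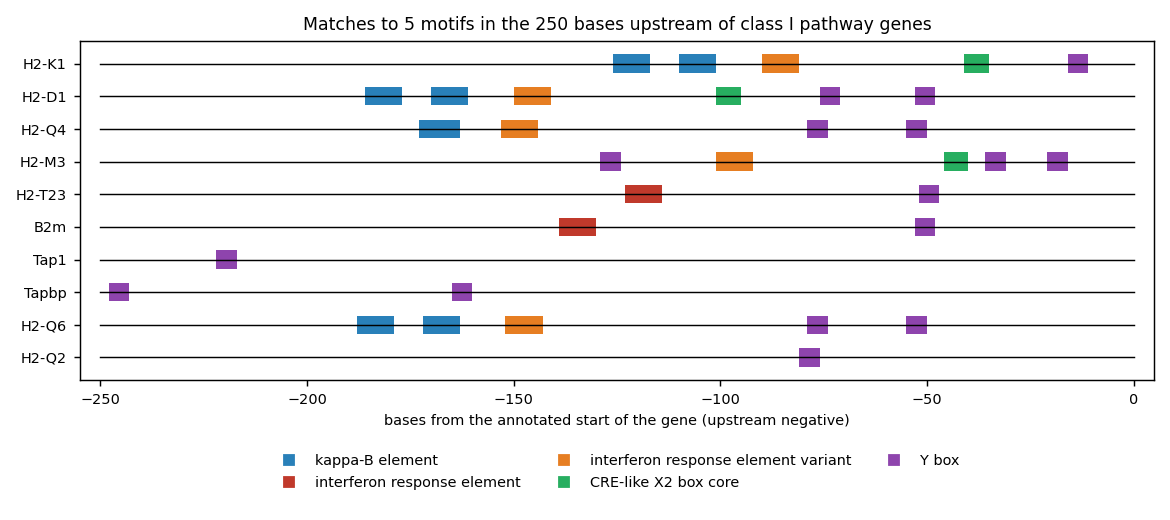
Positions of matches to 5 motifs (coloured boxes) in the 250 bases before the annotated start of 8 members and of H2-Q6 and H2-Q2, with the distance from the start in bases on the x axis. A kappa-B match lies just upstream of the closer spaced interferon element in H2-K1, H2-D1, H2-Q4 and H2-Q6, and H2-Q2, Tap1 and Tapbp show Y box matches alone.

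LPS and PBS arrays were compared by limma across all clusters, and a cluster with a Benjamini-Hochberg adjusted p under 0.05 was called higher or lower. Of the 30 member clusters 7 were higher after LPS, 0 were lower and 23 did not pass, where 0.652% of all clusters were higher and 0.0619% were lower. The 7 clusters stand for H2-K1 and H2-D1 (2 shared clusters), H2-Q4, Tap1 and Nlrc5 (3 clusters). At an unadjusted p under 0.05 there were 16 higher and 0 lower member clusters, against 7.69% of all clusters higher. In 18 member clusters all 3 LPS arrays lay above all 3 PBS arrays, a pattern seen in 9.73% of all clusters, and in 1 they lay below. The median log2 difference of the member clusters was 0.26, against -0.000925 for all clusters. In these bulk samples more cells that carry a transcript and more transcript per cell cannot be told apart.

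Few facts of the whole series touch these values. Array medians lay between 6.96 and 7.11 after LPS and between 6.96 and 6.98 after PBS, with LPS replicates 1 and 2 the highest, and these 2 arrays stood apart on a first principal component of 54.5% of the variance. The 1210 clusters that name olfactory and vomeronasal receptors, genes with little transcription in brain, served as a low reference, with medians of 5.67 to 5.81 after LPS and 5.70 to 5.77 after PBS. An exact permutation test of 3 against 3 mice, two-sided, cannot give a p below 0.1.

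The classical heavy chains H2-K1 and H2-D1 present peptides to CD8+ T cells, and both are named, with LOC547349, by the same 2 clusters, so that their transcripts cannot be told apart here. In the cluster that lists H2-K1 first (10450075), log2 expression was 9.50, 9.47 and 9.64 in LPS mice, against 7.93, 7.57 and 8.02 in PBS mice. The groups lay more than 1 log2 unit apart. This was the largest difference among the member clusters, at 1.70 (SE 0.13), or 3.24-fold with a 95% confidence interval of 2.62 to 4.02 (adjusted p = 0.00378 from limma). It passed the test without any 1 of the 6 arrays, with an adjusted p of at most 0.0282.

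In the cluster that lists H2-D1 first (10444780), log2 expression was 9.79, 9.62 and 9.95 in LPS mice, against 9.02, 8.91 and 9.04 in PBS mice. These groups were apart as well, by a smaller step. The difference was 0.80 (SE 0.10), or 1.74-fold (interval 1.47 to 2.06, adjusted p = 0.0249 from limma). The call held without LPS replicate 2 or 3. It was lost without LPS replicate 1 or any single PBS array, where the adjusted p rose to as much as 0.143. Over all 6 fits without 1 array the log2 difference stayed at 0.72 or above. The difference in the first cluster exceeded that in the second by 0.90 (exact permutation test, two-sided p = 0.1, the smallest that 3 against 3 allows).

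Among the less variable heavy chains, H2-Q4 of the Q region was higher, while H2-M3 and H2-T23 did not pass. H2-Q4 had log2 values of 7.54, 7.35 and 7.47 in LPS mice, against 6.78, 6.62 and 6.76 in PBS mice. No LPS value came near the PBS range. Its difference was 0.73 (SE 0.09), or 1.66-fold (interval 1.44 to 1.92, adjusted p = 0.0198 from limma), and in the fits without 1 array it passed only without LPS replicate 3, with an adjusted p of up to 0.105 otherwise.

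H2-M3 presents peptides that begin with N-formylmethionine, as bacterial and mitochondrial peptides do. It had log2 values of 6.72, 6.68 and 6.66 in LPS mice, against 6.23, 6.14 and 6.34 in PBS mice. The groups did not overlap and the LPS mice were close together, with an SD of 0.03, against 0.10 in PBS mice. The difference of 0.45 (SE 0.08) or 1.37-fold did not pass (adjusted p = 0.0843 from limma).

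H2-T23, whose product shows leader peptides of other class I chains to natural killer cells, shares its cluster with the pseudogene H2-T-ps. Its log2 values were 8.23, 8.06 and 7.77 in LPS mice, against 7.60, 7.49 and 7.64 in PBS mice. LPS replicate 3 lay close above the PBS range and the other LPS mice well above it. The difference was 0.45 (SE 0.13) and did not pass (adjusted p = 0.227 from limma).

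B2m encodes the light chain that every class I heavy chain needs to reach the surface. Its log2 values were 13.01, 13.15 and 13.14 in LPS mice, against 12.37, 12.76 and 12.44 in PBS mice. All LPS mice lay above all PBS mice, but PBS replicate 2 stood apart from the other 2 PBS mice. The difference was 0.57 (SE 0.12), or 1.49-fold (interval 1.23 to 1.81), and did not pass (adjusted p = 0.125 from limma).

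**Figure D2:**
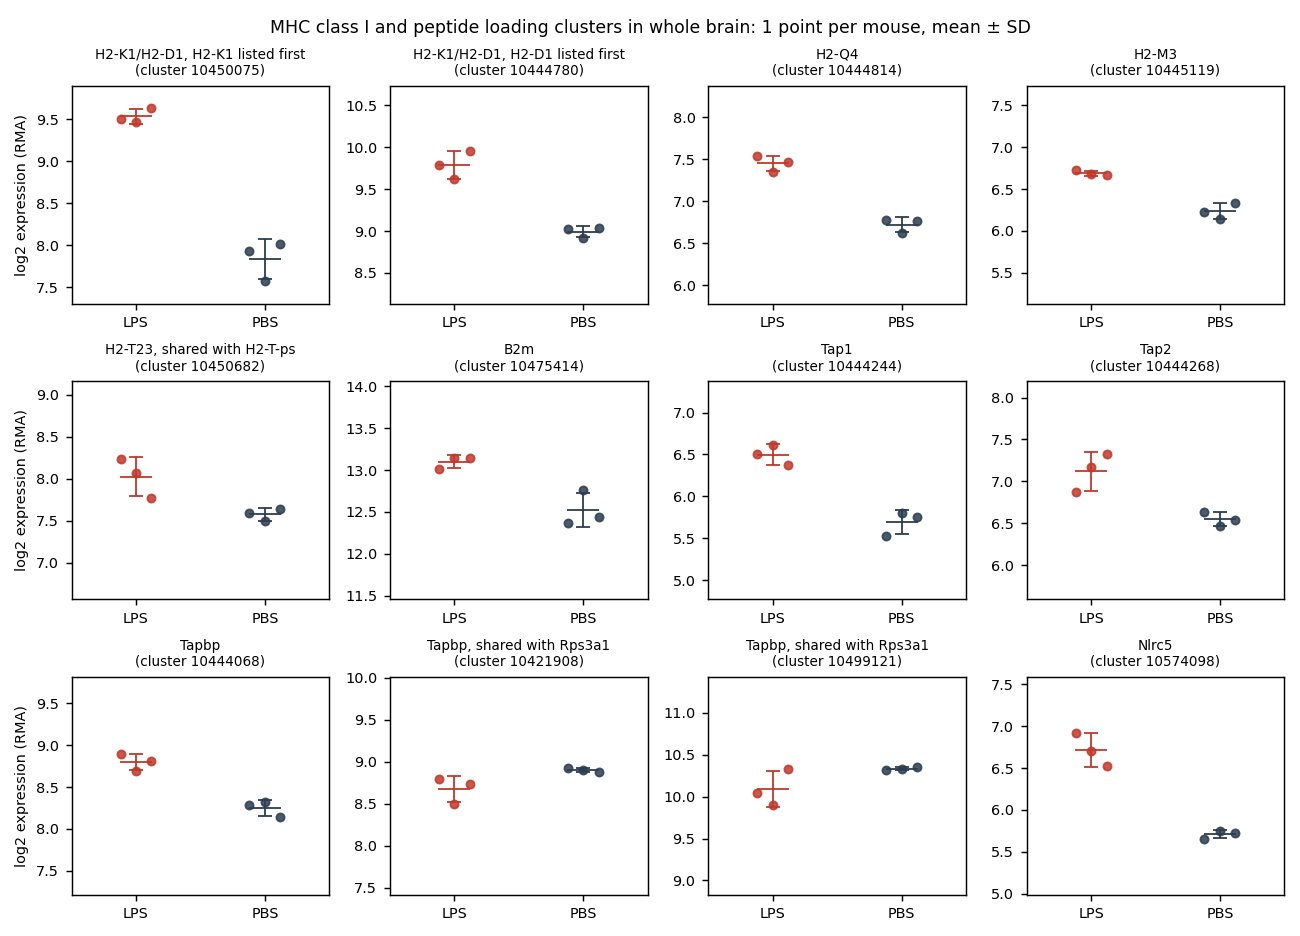
Log2 expression (y axis, with the same span in every panel) of the 11 clusters of members other than Nlrc5 and of the Nlrc5 cluster with the smallest adjusted p, with 1 point per mouse, LPS on the left and PBS on the right, and mean ± SD (n = 3). LPS mice lie above all PBS mice in 9 of the 11 clusters other than Nlrc5, against 9.73% of all clusters. The exceptions are the 2 clusters that Tapbp shares with Rps3a1. The Nlrc5 panel shows the same separation, but it was picked by its p.

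TAP1 and TAP2 together form the transporter that pumps peptides into the endoplasmic reticulum. Tap1 was higher after LPS and Tap2 did not pass, and the difference between the genes was not tested. Tap1 had log2 values of 6.51, 6.61 and 6.37 in LPS mice, against 5.53, 5.81 and 5.75 in PBS mice. The PBS values lay at the level of the olfactory and vomeronasal receptor medians and the LPS values above it. The log2 difference was 0.80 (SE 0.11, adjusted p = 0.0281 from limma), and no fold is given against PBS values at that low level. Among the fits without 1 array, only that without LPS replicate 3 kept the call, and the adjusted p was as high as 0.136 in the others.

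Tap2 had log2 values of 6.87, 7.17 and 7.32 in LPS mice, against 6.64, 6.47 and 6.54 in PBS mice. LPS replicate 1 was the lowest of its group and still above every PBS mouse. The difference was 0.57 (SE 0.13), or 1.49-fold, and passed neither with all 6 arrays (adjusted p = 0.141 from limma) nor without any 1 of them.

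Tapbp is named by 3 clusters. In the cluster that names it alone, log2 expression was 8.89, 8.69 and 8.81 in LPS mice, against 8.29, 8.32 and 8.14 in PBS mice. The groups were clearly apart, with a difference of 0.55 (SE 0.09) or 1.46-fold (interval 1.26 to 1.70), which did not pass (adjusted p = 0.0666 from limma). The other 2 clusters are shared with Rps3a1, a ribosomal protein gene, and had differences of -0.23 and -0.24 (adjusted p = 0.357 and 0.394 from limma). Without LPS replicate 3 the second of these, 10499121, passed as lower, with a difference of -0.36 (adjusted p = 0.0438 from limma). A cluster that names Rps3a1 alone had a difference of -0.05 (adjusted p = 0.886 from limma). The source of the signal in the shared clusters was not tested.

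The 5 clusters of H2-M3, H2-T23, B2m, Tap2 and Tapbp alone were alike in that none passed, each had all LPS mice above all PBS mice, and each had an unadjusted p under 0.05, with differences of 0.45 to 0.57. Without LPS replicate 3, those of H2-T23, H2-M3, B2m and Tapbp passed, in a fit where 7.42% of all clusters were higher, against 0.652% with all 6 arrays, and with any other array left out none of the 5 did. Across the 11 clusters other than Nlrc5, 4 were higher and 0 were lower, against 0.652% and 0.0619% of all clusters. The median difference of these 11 was 0.57.

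**Figure D3:**
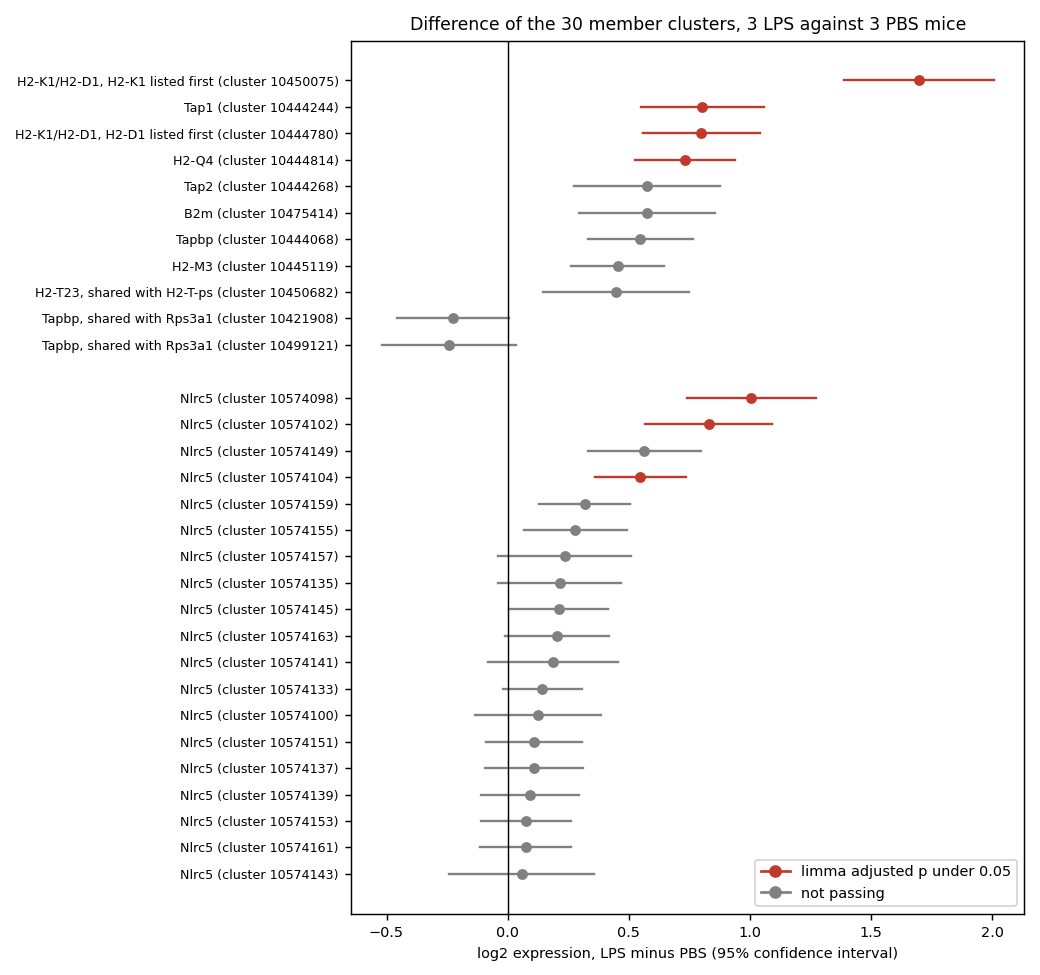
Log2 difference, LPS minus PBS, with its 95% confidence interval (x axis) for all 30 member clusters, the 11 other clusters above and the 19 Nlrc5 clusters below, red where the limma adjusted p was under 0.05. The differences run between -0.24 and 1.70, and the 2 negative ones belong to the clusters shared with Rps3a1.

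NLRC5 carries no DNA-binding domain of its own for the class I promoters and acts with the RFX, CREB or ATF1 and NF-Y factors that bind the X and Y boxes. Its gene is covered by 19 clusters, which read 1 gene in the same mice and are not replicates of each other. Of these, 3 were higher, 0 were lower and 16 did not pass, where 0.652% of all clusters were higher and 0.0619% were lower. In cluster 10574098 log2 expression was 6.92, 6.70 and 6.52 in LPS mice, against 5.66, 5.75 and 5.72 in PBS mice, where the values were at the level of the olfactory receptor medians. The log2 difference was 1.00 (SE 0.11, adjusted p = 0.0152 from limma), and no fold is given for the same reason as for Tap1. It passed without LPS replicate 1 or 3, and an adjusted p of up to 0.0962 was found without any other single array.

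In cluster 10574102 log2 expression was 7.40, 7.43 and 7.16 in LPS mice, against 6.65, 6.46 and 6.39 in PBS mice. All 6 values were above the olfactory receptor medians, and the groups did not overlap. The difference was 0.83 (SE 0.11), or 1.78-fold (interval 1.48 to 2.13, adjusted p = 0.0275 from limma). In the dim cluster 10574104 log2 expression was 5.68, 5.78 and 5.81 in LPS mice, against 5.14, 5.22 and 5.27 in PBS mice, with a difference of 0.55 (SE 0.08, adjusted p = 0.0393 from limma). The LPS values there only reached the level of the olfactory receptor medians. Both calls were kept without LPS replicate 3 and lost without any other single array, with adjusted p up to 0.164 and 0.188.

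The other 16 Nlrc5 clusters had differences of 0.06 to 0.56. In 6 of them all LPS mice lay above all PBS mice, a pattern seen in 9.73% of all clusters. The brightest, 10574100, had log2 values of 9.10, 9.21 and 8.83 in LPS mice, against 8.92, 8.93 and 8.91 in PBS mice. LPS replicate 3 fell below all PBS mice there, and the difference of 0.13 (SE 0.11) did not pass (adjusted p = 0.630 from limma). Cluster 10574149 was the nearest to the threshold, with log2 values of 6.00, 6.13 and 5.93 in LPS mice, against 5.55, 5.51 and 5.31 in PBS mice, and a difference of 0.56 (adjusted p = 0.0815 from limma). All 19 Nlrc5 differences were positive, with a median of 0.21, but with arrays centred on their medians 16 were positive and after quantile normalization 17. In 7 of the 19 clusters the PBS mean was below the mean olfactory receptor median, and 2 of these 7 were called, against 1 of the other 12. The mean over the 19 clusters differed by 0.28 (adjusted p = 0.198 from limma).

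**Figure D4:**
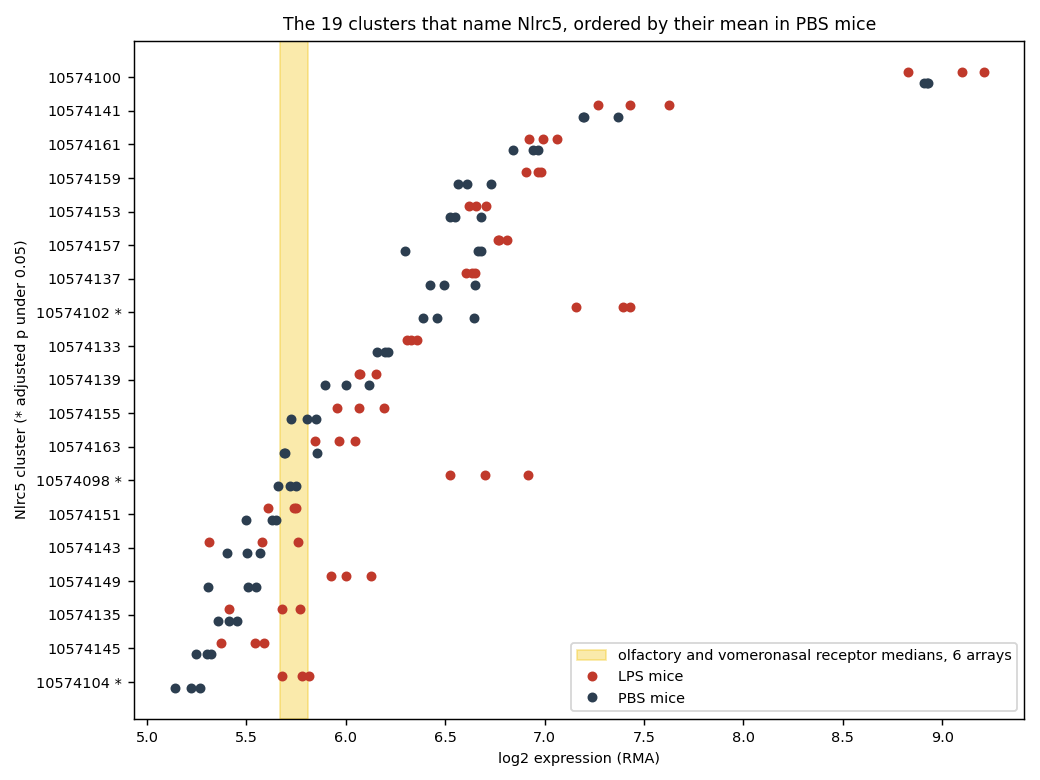
Log2 expression (x axis) of the 19 Nlrc5 clusters, ordered by their mean in PBS mice, with the 3 LPS mice (red) above the 3 PBS mice (dark) in each row, stars at the 3 clusters with a limma adjusted p under 0.05 and a yellow band over the olfactory and vomeronasal receptor medians of the 6 arrays. The called clusters 10574098 and 10574102 show the widest gaps, and the brightest cluster, 10574100, shows overlapping groups.

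Of 24 clusters that name other class I or class I-like heavy chains, 2 were higher and 0 were lower, where 0.652% of all clusters were higher. At an unadjusted p under 0.05, 3 were higher and 2 were lower, against 2733 and 2341 of all 35556 clusters. Their median difference was 0.04. However, 12 of the 24 had a PBS mean under the mean olfactory receptor median, and 12 had such an LPS mean. H2-Q6 and H2-Q8 are among the genes that encode the Qa-2 antigens. The cluster that names both had log2 values of 8.33, 7.92 and 7.88 in LPS mice, against 6.32, 6.17 and 6.62 in PBS mice. The groups were more than 1 log2 unit apart, with a difference of 1.68 (SE 0.16, adjusted p = 0.00899 from limma). The call was lost without PBS replicate 1 or 2, with an adjusted p of up to 0.0666. H2-T24 differed by 0.79 (adjusted p = 0.0431 from limma), a call kept in the fits without 1 array only where LPS replicate 3 was left out, with an adjusted p of up to 0.222 otherwise.

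H2-Q2, a neighbour of H2-Q4 in the Q region, had log2 values of 7.06, 7.11 and 7.10 in LPS mice, against 7.14, 6.98 and 7.06 in PBS mice. These groups overlapped and the difference was 0.03 (adjusted p = 0.880 from limma), with its sign turned by quantile normalization and by centring. The upstream stretches of H2-Q6, at chr17:35424670-35424849 (plus strand), and of H2-Q2, at chr17:35342127-35342306 (plus strand), are shown with the same motifs in capitals, of which the first letter of H2-Q6 ends a match that begins before it, because these Q region genes had unlike values.
H2-Q6: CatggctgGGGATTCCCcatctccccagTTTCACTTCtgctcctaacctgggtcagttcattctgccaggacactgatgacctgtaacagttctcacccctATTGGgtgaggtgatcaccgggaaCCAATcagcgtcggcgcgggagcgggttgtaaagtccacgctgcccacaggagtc
H2-Q2: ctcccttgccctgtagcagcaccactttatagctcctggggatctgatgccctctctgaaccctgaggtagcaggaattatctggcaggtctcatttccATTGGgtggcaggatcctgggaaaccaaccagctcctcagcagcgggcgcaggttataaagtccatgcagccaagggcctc

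The H2-Q6 stretch held the kappa-B and the closer spaced interferon letters and shared a run of 32 identical bases with that of H2-Q4, while that of H2-Q2 held a CCAAT match alone. That the letters are absent from this window says nothing about sites elsewhere. Tap1 was called with a CCAAT match alone, while H2-M3, H2-T23 and B2m carried interferon letters and did not pass. Whether the letters go with the expression values was not tested.

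**Figure D5:**
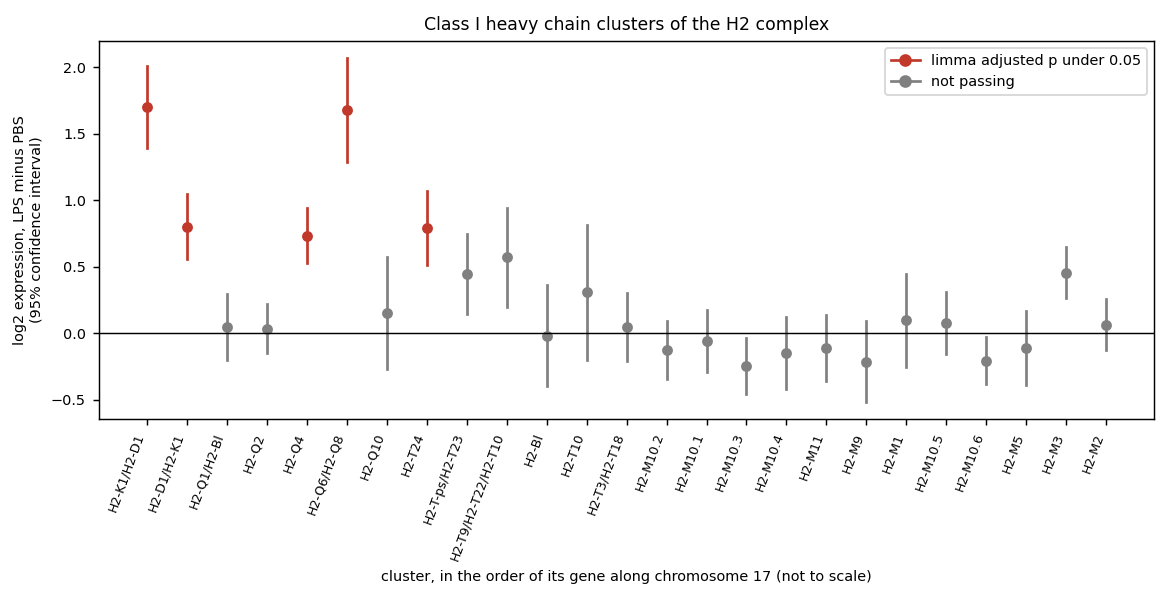
Log2 difference, LPS minus PBS, with its 95% confidence interval (y axis) for the class I heavy chain clusters of the H2 complex in the order of their genes on chromosome 17, red where the limma adjusted p was under 0.05. The clusters of H2-K1 and H2-D1, H2-Q4, H2-Q6 and H2-Q8, and H2-T24 pass, and the clusters of the H2-M genes other than H2-M3 lie close to 0 or below it.

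Other steps of the pathway were read from lists of genes, each gene by its brightest cluster. None of the 11 genes of folding, editing and trimming in the endoplasmic reticulum passed the limma test. At an unadjusted p under 0.05, 2 were higher, where 7.69% of all clusters were. Erap1, the aminopeptidase that trims peptides, differed by 0.41 (adjusted p = 0.126 from limma), and Hspa5, which encodes the chaperone BiP, by 0.03 (adjusted p = 0.929 from limma). None of the 5 immunoproteasome and activator genes passed, with 2 of 5 at an unadjusted p under 0.05. Psmb8 differed by 0.40 and Psmb9, whose start lies 226 bases from that of Tap1 in the RefSeq table, by 0.29 (adjusted p = 0.244 and 0.235 from limma). Psme1, a subunit of the proteasome activator, differed by -0.03 (adjusted p = 0.938 from limma).

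Among 16 regulators of class I transcription, 1 was higher and 0 were lower, against 0.652% and 0.0619% of all clusters. Stat2, which carries interferon signals to the nucleus, had log2 values of 8.90, 8.90 and 8.77 in LPS mice, against 8.17, 8.15 and 8.20 in PBS mice. The difference was 0.69 (SE 0.07, adjusted p = 0.0141 from limma), a call kept without LPS replicate 3 and lost without any other single array, with an adjusted p of up to 0.0950. Irf9, its partner, differed by 0.92 and did not pass (adjusted p = 0.0555 from limma). The genes of the RFX and NF-Y factors did not pass, with differences of -0.21 for Rfxap to 0.07 for Nfya. None of 12 clusters for receptors that bind class I passed. At an unadjusted p under 0.05 1 of the 12 was higher, near the 7.69% of all clusters. The mean of 9 of the 12 in LPS mice was under the mean olfactory receptor median. Cd8a, a chain of the CD8 coreceptor, differed by -0.05 (adjusted p = 0.925 from limma).

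Endothelial markers were called higher as a group, and those of other cell types in few genes or none. Of 10 endothelial markers 8 were higher, where 0.652% of all clusters were. The summed linear level of the 10 was 8536 to 8703 in LPS mice, against 4144 to 4815 in PBS mice. The smallest p-values were those of Vwf, Emcn, Cldn5, Tek, Cdh5 and the cluster that Ly6c1 shares with Ly6c2, with differences of 0.85 to 1.17. Of 9 microglial markers 1 was higher, namely Itgam with a difference of 1.77, and 3 were higher at an unadjusted p under 0.05. Their median difference was 0.11, and the sum was 3022 to 3767 in LPS mice, against 2482 to 2803 in PBS mice. Of 6 monocyte clusters 2 were higher, Fn1 and the cluster of Ly6c2 that is shared with the endothelial marker Ly6c1, with a sum of 4842 to 5303 in LPS mice, against 3020 to 3127 in PBS mice. The shared cluster and Fn1, with LPS means of 11.56 and 10.39, are the brightest of the 6, and the shared cluster also counts in the endothelial sum. The other 4, Ccr2, Plac8, Vcan and Chil3, did not pass and had differences of -0.29 to 0.18. Of 12 neutrophil markers 1 was higher, Csf3r, with a difference of 0.73. None of 11 T and natural killer cell, 6 B cell, 8 neuronal, 5 astrocyte and 4 oligodendrocyte markers passed. Their unadjusted counts were 2, 1, 0, 1 and 0 higher and 0, 0, 0, 0 and 2 lower. Of all 35556 clusters 7.69% were higher and 2341 were lower at that threshold. Astrocyte sums were 7116 to 8116 in LPS mice, against 6507 to 6974 in PBS mice. Oligodendrocyte sums were 8801 to 9375, against 9764 to 10804, and neuronal sums 44477 to 46361, against 43608 to 44463. The sums of the T and natural killer cell and of the B cell markers overlapped. By the rule for naming, which takes a member with a large p, Prf1, Blk, Map2, Slc1a3 and Mbp stand for these lists, with differences of -0.05 to 0.02. The whole lists ran wider. Differences were -0.13 to 0.57 for T and natural killer cell, -0.17 to 0.23 for B cell and -0.22 to 0.14 for neuronal markers. For astrocyte markers they were -0.18 to 0.56 and for oligodendrocyte markers -0.30 to -0.03. No marker's mean was at 0, since RMA values have a floor, but 5 of the 11 T and natural killer cell markers had a mean in LPS mice under the mean olfactory receptor median. The part of these cell types in the class I values was not tested.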

How the data were processed

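The log2 expression values were used as deposited by the authors, who normalized the arrays by RMA. Their methods describe RMA adjusted for GC content and RMA 16, and fold changes computed from the deposited values were within 1% of the study's own for 55 of 56 genes listed from the GC-adjusted version and 0 of 20 listed from RMA 16, so the deposited values were taken as GC-adjusted. Signal over background per probe was not used here, and precision is set by the small number of arrays. Clusters were named from the platform annotation, in which 21797 clusters name 1 gene, 1613 several and 12146 none. In R 4.3.3, limma 3.58.1 was used to fit all 35556 clusters by lmFit and eBayes, with 3 LPS and 3 PBS arrays and no covariate, two-sided, with Benjamini-Hochberg adjustment and a threshold of 0.05. Intervals are at 95%. The procedure was tested on simulated data. Each member cluster is reported, values per array are given for each cluster other than those shared with Rps3a1, and for each Nlrc5 cluster that passed, the brightest and the nearest to the threshold, the last chosen after its values were seen. Of the other lists, those that passed are named (up to 6 by p) or, where none passed, the one with the largest p among the brightest members of the list, and Erap1, Psmb8, Psmb9, Irf9, Rfxap, Nfya, Ccr2, Plac8, Vcan, Chil3 and H2-Q2 were chosen after their values were seen. The members and lists were chosen with earlier results of these data known. H2-Q7, H2-Q9 and Nfkb1 were not analysed here. Promoter windows came from RefSeq (GRCm38.p6), and gene order from the same assembly, since the sources used here name no build for the array's annotation. The alternatives were the methods' t-test, other eBayes settings, array weights, other scalings, filters, thresholds and offsets, a replicate block and arrays left out.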

Additional observations from a re-analysis of the deposited data

How the results depend on the processing

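Of 30 member clusters 7 were higher, and of 19 Nlrc5 clusters 3, where 0.652% of all clusters were higher. The count of member clusters was 0 by the methods' t-test after Benjamini-Hochberg adjustment (17 at an unadjusted p under 0.05, where 5.91% of all clusters were higher), 17 with array weights, 4 with arrays centred on their medians, 4 (of 17 tested) without the 40% of clusters with the lowest mean, and 1 at an adjusted p under 0.01. With array weights LPS replicate 1 had a weight of 8.69 and 13.4% of all clusters were higher. The Nlrc5 count was 0 by the t-test, 8 with array weights, 1 (of 8 tested) without the lowest clusters and 0 at an adjusted p under 0.01. Leaving out each array in turn gave 1 to 12 member clusters and 0 to 4 Nlrc5 clusters, the highest without LPS replicate 3, where 7.42% of all clusters were higher. Without LPS replicates 1 and 2 together, where the spread of the lone LPS array is taken from the PBS arrays, both counts were 0. With the replicate number as a block 1 member cluster and 0 Nlrc5 clusters passed. The labels number the samples and state no pairing. Deviations of same-numbered arrays from their group means correlated by 0.0867, -0.0538 and 0.0997. LPS replicates 1 and 3 correlated best with the PBS array of the same number, and LPS replicate 2 with PBS replicate 1 (0.146). Deviations from means of 3 arrays are too few and too dependent to decide whether arrays were paired. Other settings gave 5 to 10 member clusters and 2 to 4 Nlrc5 clusters. Of the named clusters, Nlrc5 cluster 10574100 changed sign without LPS replicates 1 and 2 together (-0.094). H2-Q2, at 0.03, changed sign with array weights (-0.0048), quantile normalization (-0.062) and centring (-0.059), and was between -0.0094 and 0.074 with 1 array left out. The cause of these changes was not tested.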
